A study of Homo sapiens with 5 samples.

Results

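The genes described here form a block at the far end of the long arm of chromosome 5: rows 5751 to 6026 of the deposited PRO-seq count table, kept where a row carried an Ensembl identifier and at least 15 counts summed over the 5 libraries. Of the 276 rows in that range, 202 met the rule, out of 20001 rows with an identifier in the whole table. PRO-seq labels RNA still attached to polymerase with biotin during a short run-on reaction, so its counts report transcription in progress. All 5 libraries were made from HEK293T, a transformed line of human embryonic kidney origin, in monoclonal derivatives carrying a landing pad, an engineered locus that accepts inserted DNA. The genotype was a PGK landing pad in 2 libraries and a CAG landing pad in 3, named for a promoter from a gene of glycolysis and for a strong composite promoter. The series profiled nascent RNA to derive RNA stability with parallel RNA-seq, which was not used here. Neither the number of clones per promoter nor whether replicates were separate cultures is in the labels. Promoter and clone therefore cannot be told apart, and the spread between replicates, which is all that the calls below measure, may be technical.

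The row range was chosen on the CAG over PGK fold changes of these same 5 libraries. The shift of the block is therefore given as a description, with no test, and neither the counts of called genes nor their direction are evidence for it. The table lists identifiers without gene names, and no table used here pairs them. The names below are those of well-known Ensembl identifiers, supplied from general knowledge, and each was kept only where the RefSeq position of that symbol fitted the order of the rows. The names were written down with the rows in view, so this check is not fully independent, and a name here is less certain than one from an annotation. Of 313 identifiers tried, 308 passed, 4 were dropped because their order did not match and 1 because its symbol had no match. Named in this way were 249 of the 276 rows and 191 of the 202 kept genes. The kept names ran along chromosome 5 from DIAPH1 in row 5751 to TRIM52 in row 6025. The first named gene of chromosome 6, DUSP22, stood in row 6028.

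This part of chromosome 5 is a mixed neighbourhood rather than a gene family. It carries housekeeping genes of the ribosome, the spliceosome and the secretory pathway, receptors such as the glucocorticoid receptor NR3C1 and the fibroblast growth factor receptor FGFR4, and clusters of tissue-restricted genes, among them GABA-A receptor subunits and SPINK protease inhibitors. In a cultured kidney line the housekeeping genes are usually transcribed, while genes of neurons, glands or immune cells are usually silent. Transcription of the most heavily expressed ribosomal genes often starts inside a run of pyrimidines, and that of many inducible or tissue-restricted genes starts downstream of a TATA box.

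Both kinds of start lay in the block, and the following windows of 30 bases show them for members whose values are given below. They are RefSeq promoter sequences on GRCh38.p14, which is not the hg19 build of the counts, written 5′ to 3′ on the strand of the gene. In the first 3, from 22 bases before to 8 bases after the annotated start, capitals mark the run of pyrimidines that spans the start, as far as it lies in the window:
RPS14 (chr5:150449732-150449761, minus strand): cgtcgctccgccccctcccaCTCTCTCTTT
RACK1 (chr5:181243899-181243928, minus strand): ttccggcggggggCTTTTCTCTCTCTCTTT
NPM1 (chr5:171387827-171387856, plus strand): ataagcgcggggagcctgcgTCCTTTCCCT
In the other 3, capitals mark TATAAA, which began 30 bases before the start of DUSP1 and SPINK5 and 29 bases before that of HNRNPAB:
DUSP1 (chr5:172771208-172771237, minus strand): ccagaggccgcaTATAAAcgcgctccccgg
SPINK5 (chr5:148063938-148063967, plus strand): tcaccagtgcttTATAAAagtaaactgcat
HNRNPAB (chr5:178204492-178204521, plus strand): cggctccggcatTATAAAgggcgccacgag
A run of at least 8 pyrimidines over the start was present in 9 of 174 members with a RefSeq promoter (5.17%) and in 4.62% of 15843 protein-coding promoters. Within 50 to 11 bases before the start, TATAAA on the gene's strand was found in 3 members, the 3 shown, which is 1.72%, against 3.80% of all promoters. These matches describe the sequences only.

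In nascent RNA the block was lower in the CAG line as a whole. The 202 members together held 2.07% and 2.03% of all counts in PGK replicates 1 and 2, and 1.55%, 1.57% and 1.55% in CAG replicates 1, 2 and 3. On the scaled library size their summed level was 20791 ± 455 CPM (counts scaled to a common library size; SD, n = 2) in the PGK line and 15425 ± 81.0 CPM (SD, n = 3) in the CAG line, a ratio of 0.742. The lines did not overlap, but the rows were picked on this contrast, so nothing is read from the gap. Levels in CPM were not divided by gene length, so they are compared between lines for 1 gene and not between genes. Only the level groups below rank genes by CPM, with that limit. Library totals ranged from 3712105 to 5864157 counts. The 8 HEK293 markers summed to 393 to 419 CPM in the PGK libraries and 457 to 485 CPM in the CAG libraries. Among them CDH2 had 1110 to 1886 counts per library and VIM 308 to 736, whereas the neurofilament gene NEFM had 4 counts in all, and 5 of the 8 reached a mean of 5 CPM. The kidney developmental factors went the other way from the sum: PAX2 had 50 and 27 counts with PGK and 20, 17 and 25 with CAG, and LHX1 had 37 and 23 against 10, 8 and 8. All 4 erythroid markers and 3 of 4 T cell markers were at 0. Among hepatocyte markers, APOA1 had 17 to 59 counts per library and ALB 1 in all, with a list sum of 10.3 and 4.77 CPM in the PGK line and 9.29 to 10.98 CPM in the CAG line. The part of these markers in the results was not tested.

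Gene by gene, 181 members had enough counts to be fitted with edgeR's quasi-likelihood test of CAG over PGK across 13400 genes. Their median log2 fold change was -0.44, a CAG level of 0.736 times the PGK level, while the median over all tested genes was -0.00. Below 0 lay 163 members and above 0 lay 18. At an adjusted p under 0.05, edgeR called 133 members lower in the CAG line, where 20.7% of all tested genes were called lower, and 6 higher, where 22.7% of all tested genes were. Together these are 139 of 181, where 43.4% of all tested genes were called in either direction, and the other 42 were not called. In 144 members every CAG library lay below every PGK library, a pattern that 30.4% of all tested genes showed, and in 13 every CAG library lay above, as in 30.9% of all tested genes. Because the rows were picked on this contrast, nothing is read from these shares. The remaining 21 members had 15 to 41 counts in all and were not fitted.

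**Figure D1:**
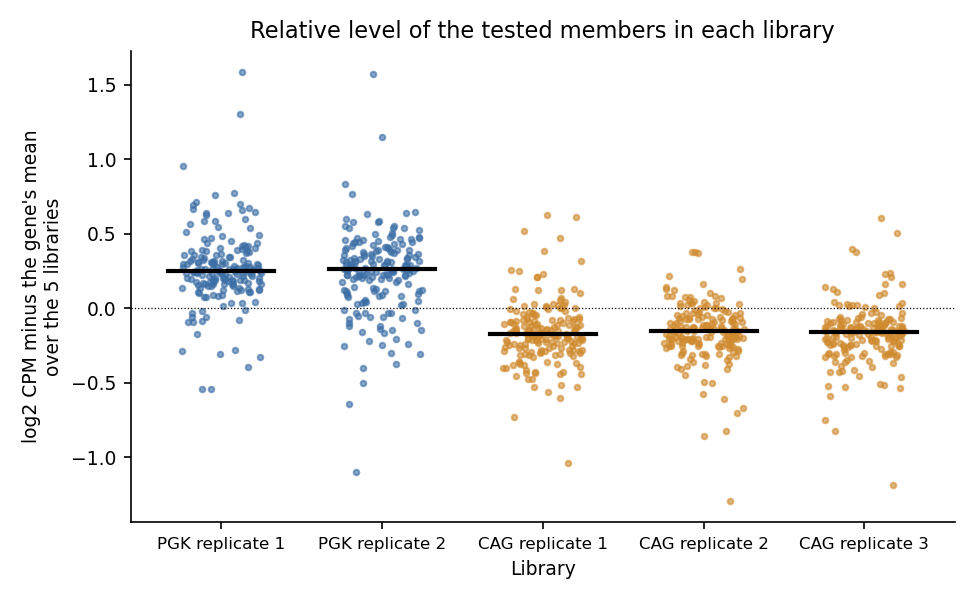
Relative level of the 181 tested members in each of the 5 libraries: each point is 1 gene's log2 CPM minus its mean over the 5 libraries, and the black bar is the median of the library. The medians were 0.25 and 0.26 with PGK and -0.17, -0.15 and -0.16 with CAG.

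Most members moved by a similar amount. The quartiles of the tested members were -0.59 and -0.28 on the log2 scale, an interquartile range of 0.31, against 0.51 for the 13219 tested genes outside the block. The 402 tested genes from TERT to the block had one of 0.345. Within 0.2 of the block's median lay 105 of 181 members (58.0%), and 58.0% of those 402 genes lay within 0.2 of their own median. The spread narrowed where more reads were counted. Split into 3 groups by level, the members with the lowest levels (2.27 to 35.9 CPM) had an interquartile range of 0.65 and a median standard error (SE) of 0.18. In the group with the highest levels (106 to 597 CPM) these were 0.17 and 0.07, and 54 of 60 genes were called lower and 1 higher. Of 3014 genes outside the block in that level range, 26.8% were called lower and 21.6% higher. The rows were picked on this contrast, so nothing is read from these calls. The medians of the 3 level groups, from low to high, were -0.42, -0.42 and -0.45. Genes outside the block in the same 3 level ranges had medians of 0.11, -0.04 and -0.06, with interquartile ranges of 0.72, 0.38 and 0.33.

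**Figure D2:**
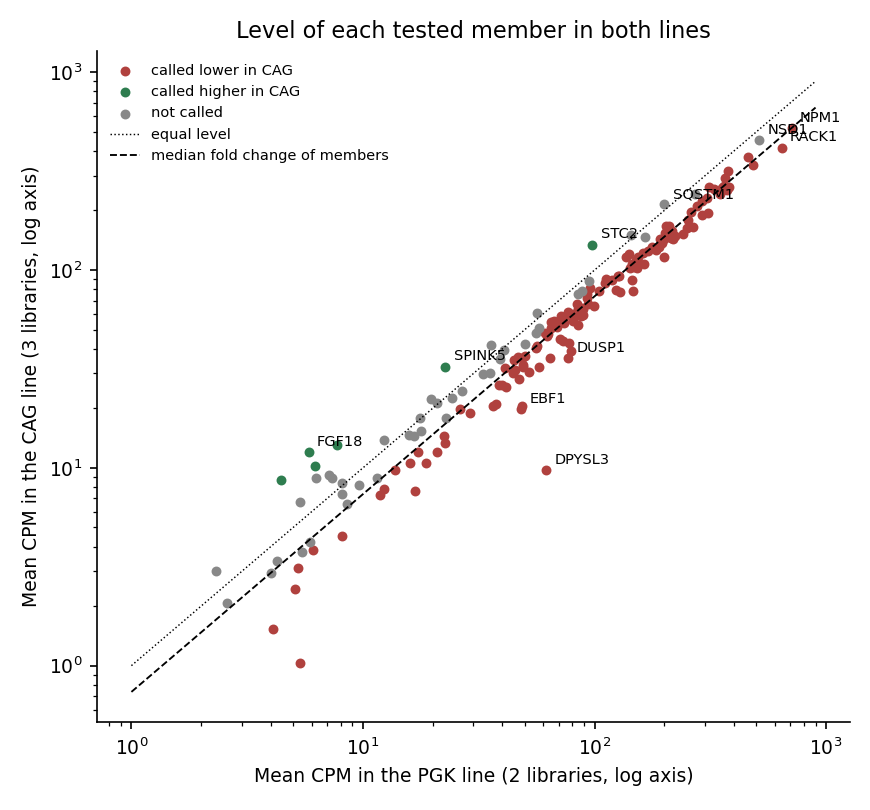
Mean CPM of each of the 181 tested members in the PGK line (horizontal, 2 libraries) and in the CAG line (vertical, 3 libraries), both on log axes, coloured by the edgeR call. The 133 members called lower lie along the dashed line at the median of 0.736, below the dotted line of equal level, and DPYSL3 lies farthest below both.

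The spread between replicates, which the choice of rows did not use, was as follows. The median log2 difference of PGK replicate 2 from PGK replicate 1 over the tested members was 0.00, and between CAG libraries it ranged from -0.03 to 0.03. Between a CAG and a PGK library the median difference ranged from -0.45 to -0.41 over all 6 pairs. That is the contrast on which the rows were picked, so nothing is read from it. Single members varied more than the median did. The SD of the PGK replicate difference over members was 0.23, and it was 0.33 over genes outside the block. For the CAG pairs the SD was 0.21 to 0.23 over members and 0.22 to 0.23 over genes outside the block.

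The lower level ran through the whole row range. Divided into 9 runs of 20 or 21 tested members in row order, the block had medians between -0.53 and -0.36. The lowest was the run from GPRIN1 to DOK3, with 19 of 20 members below 0, and the highest that from ERGIC1 to CDHR2, with 17 of 20 below 0. In each run the relative level of both PGK libraries was above 0 and that of all 3 CAG libraries was below 0. Among windows of 20 consecutive tested members, the lowest median was -0.57, from RELL2 to JAKMIP2. The highest was -0.28, shared by the windows that start at RMND5B, NHP2, HNRNPAB and ZFP2. The first of these, from RMND5B to ENSG00000245317, held 3 neighbouring members above 0. LTC4S, which makes leukotriene C4, stood at 0.35 ± 0.26 (SE) on the log2 scale, MGAT4B, an N-glycan branching enzyme, at 0.09 ± 0.09, and SQSTM1, the autophagy receptor p62, at 0.09 ± 0.09. The lines of LTC4S did not overlap and those of the other two did. None of the 3 was called, and the next member, MRNIP, a factor of DNA damage signalling, was at -0.41 ± 0.08. ENSG00000245317, which follows it and ends the window, was above 0 again at 0.15 ± 0.18 and was not called.

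**Figure D3:**
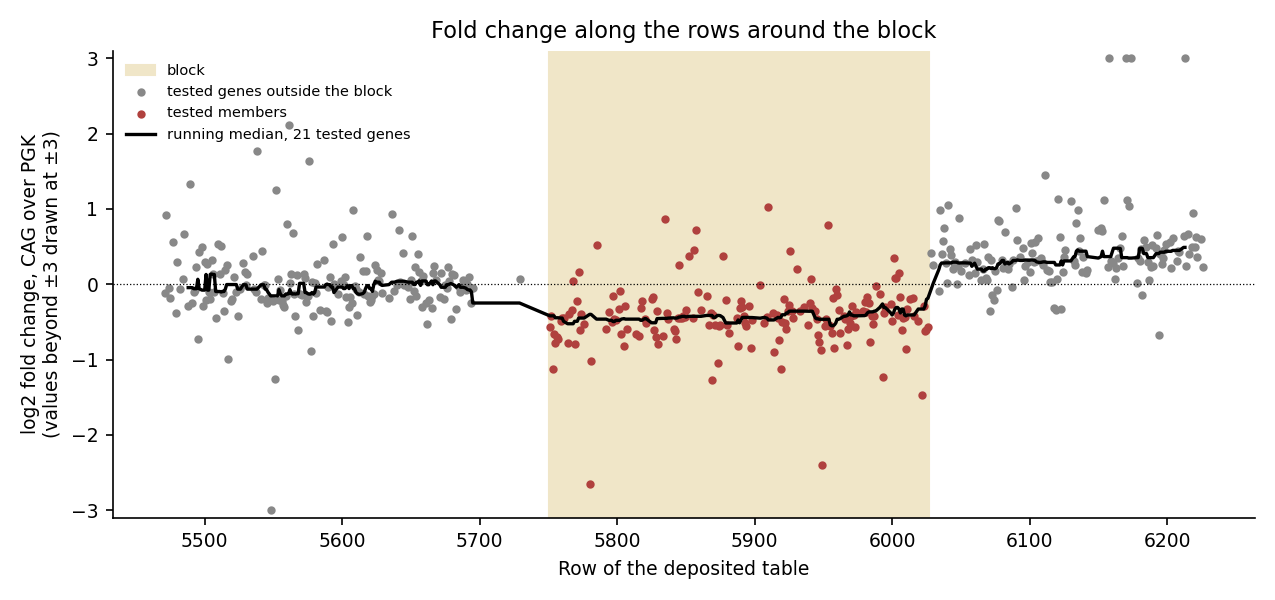
Log2 fold change (CAG over PGK) of each tested gene against its row in the deposited table, from 280 rows before to 200 rows after the block; the shaded area is the block and the line is the running median of 21 tested genes. The line lies near 0 before the block, near -0.44 within it and above 0 after it.

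The 2 edges of the block differed. Before it came a gap: the 21 rows from 5730 to 5750, among them protocadherin gamma genes, adhesion molecules of neurons encoded by overlapping transcripts, had 20 rows at 0 in every library and at most 8 counts in the remaining one. Of the 60 rows before the block only 6 had 15 or more counts. The counting of overlapping genes is not described in the labels. The last counted gene before the gap was TAF7, a subunit of the general transcription factor TFIID. It had 23.2 and 25.2 CPM in the PGK line and 26.4, 24.3 and 25.01 CPM in the CAG line, so the lines overlapped. ZMAT2, HARS1, ENSG00000112855 and ENSG00000256453, the 4 counted genes before it, had log2 fold changes of -0.05, -0.07, -0.25 and 0.09, and none was called.

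Just inside the edge, the actin nucleator DIAPH1 had 215 and 229 CPM with PGK and 144, 147 and 157 CPM with CAG. Its neighbour, the histone deacetylase HDAC3, had 64.2 and 62.0 CPM against 50.6, 48.8 and 42.9 CPM. RELL2, FCHSD1 and ARAP3 followed at -1.13, -0.66 and -0.78 on the log2 scale. In all 5 of these genes every CAG library lay below both PGK libraries, a pattern that 30.4% of all tested genes showed. The edge was set on this contrast, so nothing is read from it. The 20 tested genes before the block had a median of -0.02 and the first 20 in it a median of -0.51.

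At the other end the change of level was a reversal of sign. The last 5 members were TRIM7 (-1.46 ± 0.37), TRIM41 (-0.29 ± 0.09), RACK1 (-0.62 ± 0.09), TRIM52 (-0.61 ± 0.13) and ENSG00000268397 (-0.56 ± 0.17), all on the log2 scale with their SE. The TRIM genes encode proteins of the tripartite motif family, mostly ubiquitin ligases. The next gene with 15 or more counts was DUSP22, a dual-specificity phosphatase on chromosome 6. It had 55.3 and 44.3 CPM in the PGK line and 67.3, 71.8 and 64.1 CPM in the CAG line, a log2 fold change of 0.42 ± 0.10. EXOC2, of the exocyst, followed at 0.26 ± 0.08, ENSG00000164379 had 19 counts and was not fitted, and ENSG00000137273 and ENSG00000054598 stood at -0.09 and 0.98. The last 20 tested members had a median of -0.41, and the first 20 tested genes after the block one of 0.29. The 181 tested genes before the block had a median of -0.04. From TERT, near the start of chromosome 5, to the block 402 tested genes had a median of -0.06. Of these 402, 86 (21.4%) were called lower and 50 (12.4%) higher. Over all tested genes the shares were 20.7% lower and 22.7% higher.

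The role lists below hold only genes of a row range picked for this contrast, in which 73.5% of tested members were called lower, against 20.7% of all tested genes, and no list was tested against the block. Of 15 listed genes of translation and ribosome biogenesis, all in the block, 14 were tested, 13 were called lower and 0 higher, with a median of -0.45. RPL26L1, a ribosomal protein paralogue, was not called (-0.19 ± 0.10). NPM1, the nucleolar chaperone nucleophosmin, had 649 and 769.6 CPM with PGK and 509, 516 and 543 CPM with CAG, a log2 fold change of -0.44 ± 0.08. PGK replicate 2 was the highest, and the lines did not overlap. RACK1, a scaffold on the small ribosomal subunit, had 560.3 and 724 CPM against 420.0, 412 and 415 CPM, with PGK replicate 2 highest and the CAG libraries close together. RPS14, a protein of the small ribosomal subunit, was at 266 ± 14.8 CPM in the PGK line (SD, n = 2) and 165 ± 6.60 CPM in the CAG line (SD, n = 3), which is -0.69 ± 0.07 on the log2 scale. The RNA-binding protein LARP1, which controls ribosomal protein mRNAs, was at -0.45 ± 0.08, and G3BP1, a core protein of stress granules, at -0.45 ± 0.07. NPM1, RACK1 and RPS14 are the genes whose pyrimidine runs are printed above.

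All 13 listed genes of mRNA processing and decay were tested, 10 were called lower and 0 higher, and the median was -0.40. HNRNPH1, a splicing regulator, had 443 and 475 CPM in the PGK line and 368, 367 and 377 CPM in the CAG line. RBM27 was at -0.40 ± 0.08 and CNOT6, a deadenylase of the CCR4-NOT complex, at -0.33 ± 0.07. THG1L, DDX41 and HNRNPAB were not called. HNRNPAB, whose TATAAA is shown above, had a log2 fold change of -0.17 ± 0.07, and its CAG libraries lay below its PGK libraries.

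In the secretory pathway, 13 of 15 tested genes were called lower and 0 higher, with a median of -0.37. CANX, the lectin chaperone calnexin, had 365 and 391 CPM with PGK and 319.6, 323 and 304 CPM with CAG. ERGIC1, a cargo receptor between endoplasmic reticulum and Golgi, was at -0.50 ± 0.08, RNF130 at -0.61 ± 0.08 and the clathrin adaptor CLINT1 at -0.38 ± 0.07. RANBP17, a nuclear transport receptor of no list, had 438 and 532 CPM against 352, 325 and 342 CPM, and FAF2, of endoplasmic reticulum quality control, was at -0.46 ± 0.08. MGAT1, which starts the branching of N-glycans, and MGAT4B were not called. The call of CANX was lost without CAG replicate 1 (-0.27) and without CAG replicate 3 (-0.23).

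Among cell division and DNA repair genes, 9 of 9 tested genes were called lower, with a median of -0.44. CSNK1A1, casein kinase 1 alpha, had 348 and 382 CPM in the PGK libraries against 292, 286 and 296 CPM in the CAG libraries. UIMC1, which recruits the BRCA1-A complex to damaged DNA, had 379 and 381 CPM against 263, 261 and 261 CPM. SPDL1, a spindle checkpoint factor, was at -0.47 ± 0.07 and SIMC1 at -0.54 ± 0.08. The list drawn up as mitochondrial had 5 of 5 tested genes called lower at a median of -0.35. Its members PANK3 and MAT2B are not mitochondrial proteins, so these values do not stand for mitochondrial genes alone. The serine transporter SFXN1 was at -0.36 ± 0.08 and the import factor GRPEL2 at -0.46 ± 0.08. The pantothenate kinase PANK3 was at -0.28 ± 0.07 and MAT2B at -0.31 ± 0.08. HIGD2A of the same list was at 0 in all 5 libraries.

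Among chromatin and transcription regulators, 11 of 15 tested genes were called lower, 0 higher and 4 not at all, with a median of -0.45. NSD1, a histone H3 lysine 36 methyltransferase, was 1 of the 4. It had 503 and 523 CPM in the PGK line and 453, 441 and 469 CPM in the CAG line, which do not overlap, at a log2 fold change of -0.18 ± 0.08. It was called lower without PGK replicate 1 (-0.21), without PGK replicate 2 (-0.15) and with DESeq2 (-0.18). The zinc finger gene ZNF346 was at -0.55 ± 0.08, NR3C1 at -0.40 ± 0.08 and the coactivator PPARGC1B at -0.67 ± 0.07. MED7, of the Mediator complex, had 7.27 and 5.33 CPM with PGK and 10.2, 7.91 and 8.68 CPM with CAG, and was not called (0.45 ± 0.24).

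**Figure D4:**
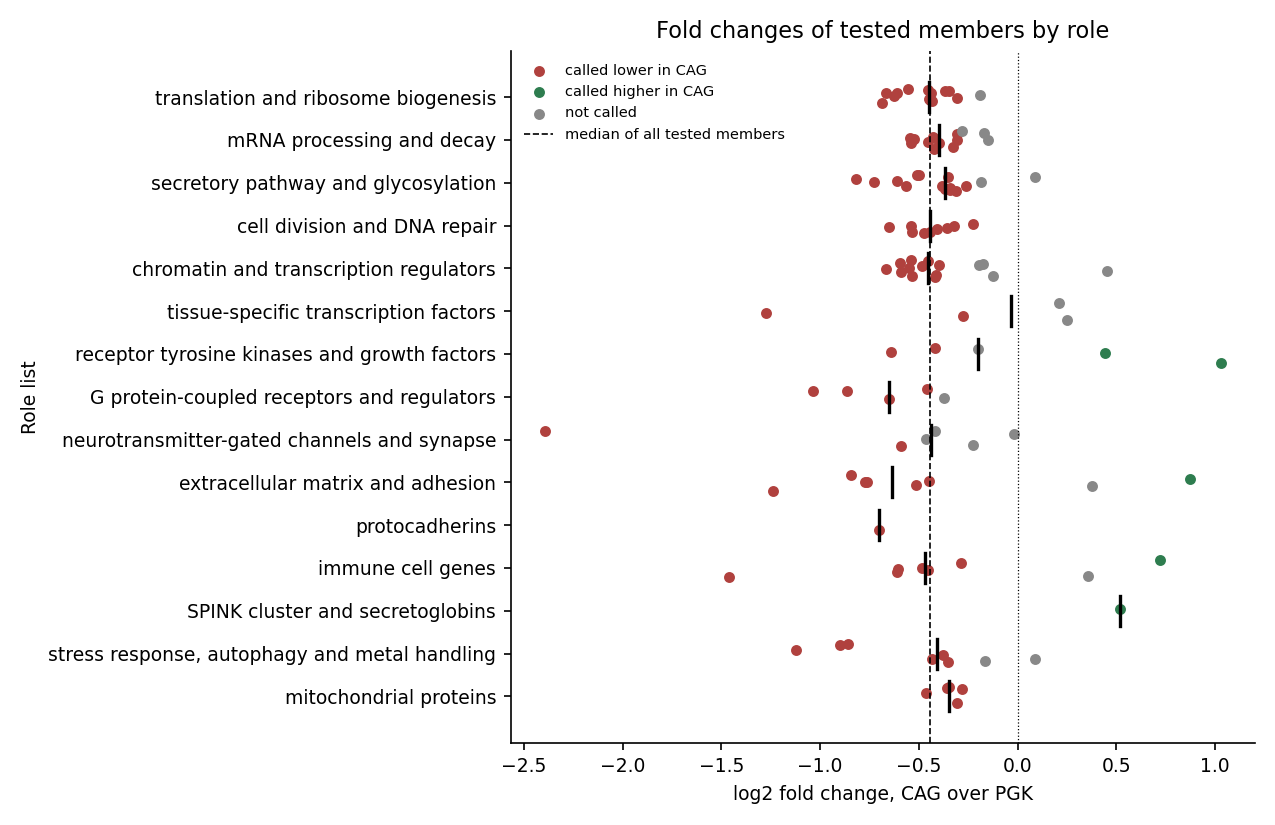
Log2 fold change (CAG over PGK) of tested members grouped by role list; each point is 1 gene coloured by its edgeR call, the black bar is the list's median, and the dashed line is the median of all 181 tested members. The lists for translation, mRNA processing, secretion and cell division lie close to the dashed line, with medians from -0.45 to -0.37, and the 5 green points are listed members called higher.

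Lists of tissue-restricted genes held many of the rows under 15 counts. Of 10 developmental transcription factors, 5 had fewer than 15 counts, FOXI1 among them with 0. NKX2-5, a cardiac homeobox factor, had 72.2 and 58.0 CPM in the PGK line and 58.4, 53.0 and 52.6 CPM in the CAG line. It was called lower (-0.28 ± 0.10) although CAG replicate 1 lay above PGK replicate 2. MSX2, a homeobox factor of bone and skull, had 38.8 and 32.8 CPM against 40.1, 41.5 and 44.1 CPM, with every CAG library above both PGK libraries, and was not called. HAND1 (0.25 ± 0.23) was not called either. EBF1, a factor best known from B cells, had 45.9 and 50.7 CPM with PGK and 22.985, 17.2 and 19.4 CPM with CAG, and at -1.28 ± 0.13 it was called lower.

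Of the GABA-A receptor subunits, which form inhibitory neurotransmitter channels, GABRA6 had 1 count and GABRB2 had 17 counts over all 5 libraries. In the list of channels and synapse genes, 7 of 17 had fewer than 15 counts. The 6 that were tested had a median of -0.44, with 2 called lower and 0 higher. DBN1, the actin-binding protein drebrin, was called lower at -0.59 ± 0.08, whereas KCNIP1, a potassium channel partner, was at -0.02 ± 0.16, SYNPO at -0.23 ± 0.17 and UNC5A, a netrin receptor, at -0.46 ± 0.32, none of them called. In the SPINK and secretoglobin list 7 of 9 genes were below 15 counts, and SPINK6, SPINK7, SPINK14 and SCGB3A1 had none. PCDH12 and the orphan receptor gene GPR151 also had none. With 0 counts, up to 3 counts in all libraries together remain possible from counting error alone.

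The immune list mixes genes of cells foreign to a kidney line with others, such as TNIP1, TRIM41 and TRIM52, that do not mark such cells. Of its 17 genes, 7 had fewer than 15 counts, among them CD74, the invariant chain of antigen presentation, with 4. Of the 8 tested, 6 were called lower, 1 higher and 1 not at all, at a median of -0.47. TNIP1, an inhibitor of NF-kB signalling, was at -0.60 ± 0.08, TRIM41 at -0.29 ± 0.09, TRIM52 at -0.61 ± 0.13, and HAVCR2, the checkpoint receptor TIM-3, at -0.45 ± 0.11. The T cell markers CD2, CD3D and CD3E were at 0 in every library, and the fourth, LCK, had 2 to 5 counts per library.

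Growth factor and receptor genes held 2 of the 6 members called higher. STC2, a secreted glycoprotein hormone, had 105 and 91.1 CPM with PGK and 129, 135 and 139 CPM with CAG, a log2 fold change of 0.44 ± 0.08. FGF18, a secreted fibroblast growth factor that follows NPM1 in the table, had 6.03 and 5.61 CPM against 14.04, 10.1 and 11.9 CPM. At 1.03 ± 0.23 it was the only member called at least 2-fold higher, where 5.01% of all tested genes were. In both genes every CAG library lay above both PGK libraries, as in 30.9% of all tested genes. FGFR4 (-0.64 ± 0.16) and the adaptor DOK3 (-0.42 ± 0.10) were called lower, and FLT4, a receptor for lymphatic growth factors, was not called (-0.20 ± 0.09).

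Of the 5 tested genes for G protein-coupled receptors and their regulators, 4 were called lower and 0 higher, at a median of -0.65. The receptor kinase GRK6 was at -0.46 ± 0.08, RGS14 at -0.65 ± 0.20 and GPRIN1 at -0.87 ± 0.14. In the matrix and adhesion list, 6 of 8 tested genes were called lower and 1 higher, at a median of -0.64. SH3PXD2B, an adaptor of invadopodia, was at -0.45 ± 0.07, PDLIM7 at -0.51 ± 0.09, the guidance cue SLIT3 at -0.84 ± 0.09 and CDHR2 at -0.77 ± 0.13. SPARC, a collagen-binding matrix protein, was the 1 called higher, with 6.03 and 2.80 CPM in the PGK line and 8.14, 8.504 and 9.36 CPM in the CAG line. Its log2 fold change of 0.87 ± 0.27 was 1.62 without PGK replicate 1 and 0.53 without PGK replicate 2, where the call was lost, as it was with DESeq2 (0.91).

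Stress and autophagy genes spread around the block's median. Of 8 tested, 6 were called lower, 0 higher and 2 not at all, at a median of -0.41. MAPK9, the stress kinase JNK2, was at -0.44 ± 0.07 and the copper chaperone ATOX1 at -0.38 ± 0.08, near the median of the block. The kinase STK10 had 149 and 144 CPM with PGK and 76.3, 81.3 and 78.6 CPM with CAG. DUSP1, an immediate early gene that shuts off MAP kinases, had 83.0 and 70.7 CPM against 36.2, 37.0 and 34.0 CPM, a log2 fold change of -1.12 ± 0.10. SQSTM1 had 225 and 175 CPM in the PGK line and 226, 219.9 and 198 CPM in the CAG line, which overlap.

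Of all members, 9 were called at least 2-fold lower, where 1.94% of all tested genes were. The largest fall was that of DPYSL3, a cytoskeletal protein of growing axons. It had 62.1 and 61.4 CPM with PGK and 9.76, 8.11 and 11.4 CPM with CAG, a log2 fold change of -2.65 ± 0.14. JAKMIP2, the row after it, had 77.8 and 81.0 CPM against 38.0, 39.7 and 39.3 CPM (-1.02 ± 0.09). ADAMTS2, which trims procollagen, had 47.5 and 49.3 CPM against 21.4, 17.996 and 21.9 CPM (-1.24 ± 0.12). With EBF1, DUSP1 and RELL2 these make 6, and in all 6 every CAG library lay below both PGK libraries. That pattern was seen in 30.4% of all tested genes. These 6 were picked for their fall on the same contrast, so nothing is read from it. The other 3, which fell outside the rule for named genes and are given because their values were seen, were SNCB (-2.40 ± 0.38), TRIM7 and ADRA1B (-1.04 ± 0.34), with 66, 63 and 88 counts in all.

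**Figure D5:**
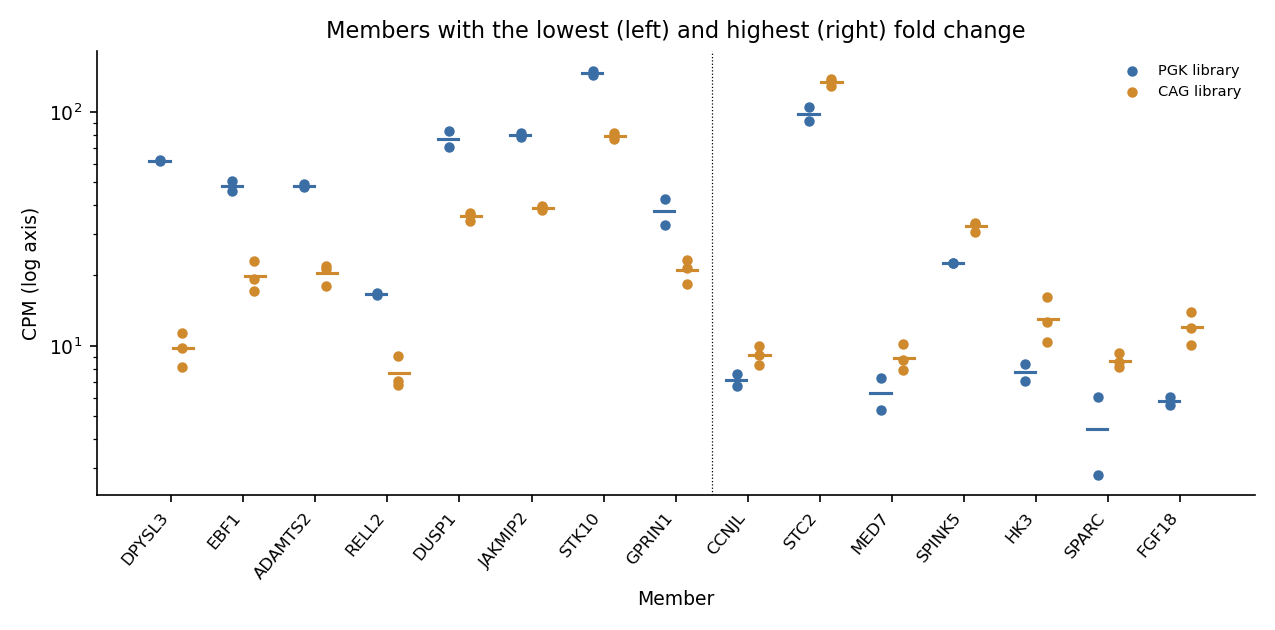
CPM (log axis) in each PGK library (blue) and each CAG library (orange) for the 8 tested members with the lowest fold change (left) and 7 of the 8 with the highest (right) among those with a mean of at least 5 CPM; bars are line means. In each of the genes drawn the lines do not overlap, and CCNJL and MED7 are the 2 that were not called. The genes were picked for their fold change on this contrast, so nothing is read from the separation.

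SPINK5 and HK3 were also called higher. SPINK5, a protease inhibitor of skin with the TATA box printed above, had 22.7 CPM in both PGK libraries and 33.6, 30.7 and 33.2 CPM in the CAG libraries, a log2 fold change of 0.52 ± 0.13. HK3, a hexokinase of myeloid cells, had 7.09 and 8.41 CPM against 10.4, 12.7 and 16.2 CPM (0.79 ± 0.22). Its call was lost without PGK replicate 1 (0.64), without CAG replicate 3 (0.60) and with DESeq2 (0.77). STC2, SPINK5 and FGF18 were called higher in every one of the 13 alternative fits. CCNJL, a cyclin-like gene, was among the 8 highest at 0.37 ± 0.22 and was not called.

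Promoter composition, which the rule did not use, varied with CPM inside the block. The level groups rank genes by CPM, which was not divided by gene length. The part of gene length in the shares below was not tested. A ratio of observed to expected CpG of at least 0.6 was found in 25.5% of 51 promoters of block genes under 15 counts. In the 3 level groups of the kept and named members it was found in 64.9%, 83.3% and 87.7%, from low to high, and in 65.8% of all protein-coding promoters. Median GC content in the same 4 sets was 55.0%, 61.3%, 63.7% and 67.0%. On either strand of the 300-base promoter, TATAAA was in 4.60% of 174 members and 9.63% of all promoters, CCAAT in 35.1% and 36.4%, GGGCGG (a GC box) in 66.7% and 58.5%, and CACGTG (an E-box) in 8.62% and 8.88%. The cores of motifs for NRF1 (GCATGCG), ETS factors (CCGGAA), YY1 (ATGGCGG) and CREB (TGACGTC) were in 6.90%, 24.1%, 6.90% and 2.87% of members and in 5.14%, 22.9%, 7.63% and 4.58% of all promoters. Members had passed the minimum of 15 counts and all promoters had not, so these sets are unlike in level. TATAAA was in 9.80% of the promoters of block genes under 15 counts. In the 3 level groups, from low to high, it was in 8.77%, 3.33% and 1.75%. These shares are descriptions and were not tested.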

How the data were processed

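The authors deposited 1 table of raw counts per Ensembl gene identifier. The submitters' processing notes list hg19 and, with no order or role, featureCounts 2.0.3, HISAT2 2.2.1, Bowtie2 2.5.1, fastp 0.23.2, UMI-tools and cutadapt. For strand setting, annotation and counted region nothing is stated, so values of overlapping, antisense and near-identical genes are uncertain. The 18 rows without an identifier (95 counts) were left out. All 5 columns matched a sample by description. Genes passed edgeR's filterByExpr (minimum count 10, minimum total 15), were scaled by TMM and were fitted with the quasi-likelihood test (edgeR 4.0.16, R 4.3.3) on all 13400 tested genes, with Benjamini-Hochberg adjustment and calls at 0.05. SE was obtained by dividing each absolute log2 fold change by the root of its F statistic. Relative levels used log2 CPM with a prior count of 2. The fit was tested on simulated data. The members, role lists and named genes were chosen with earlier results of these data known. Named were the 12 members with the highest mean CPM, the 8 highest and 8 lowest fold changes at 5 CPM or more, up to 4 leading genes per role list and those at 0, the 5 kept rows on each side of both edges, and genes of the extreme windows. RPS14, HNRNPAB and other members given as not called, the printed sequences, the start-site counts and the level groups outside the block were added after values were seen. The part of the rule that needed protein sequences was not run. Gene names were assigned as the report describes. Alternatives used DESeq2 1.42.0 and limma 3.58.1. Some members that the rule names are not reported here.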

Additional observations from a re-analysis of the deposited data

Results flagged for a closer look

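Neither line had 4 libraries, so libraries were not tested for standing apart. The 74 rows of the block under 15 counts, which entered no comparison, held 200 counts over the 5 libraries. By library this was 50 and 18 with PGK and 41, 44 and 47 with CAG, and 21 of these rows had none. The 18 rows of the table without an identifier held 95 counts, 25 and 13 with PGK and 21, 15 and 21 with CAG.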

How the results depend on the processing

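The block's median log2 fold change of -0.44 stayed below 0 in every alternative. It was -0.42 with upper-quartile factors, -0.43 with no filter, -0.42 with the range shortened by 20 rows at each end, -0.42 with it lengthened, and -0.45 to -0.42 with 1 library left out. The 133 members called lower became 107 to 136, and the 6 called higher became 3 with DESeq2, 16 with the lengthened range, which takes in rows of chromosome 6, and 4 to 6 with 1 library left out. The log2 ratio of summed levels, -0.43, was -0.40 as percent of the library and -0.45 to -0.41 with 1 library left out. With the replicate number as a block, 117 members were called lower and 5 higher. The calls of CANX (-0.23), HNRNPH1 (-0.32) and HK3 (0.57) were lost with it. The numbers were not treated as a pairing: for number 1 the deviations from the line means had r = 0.04, and for number 2 r = -0.07. The 28 genes with the highest CPM or extreme fold changes kept their direction in all 364 values, and in 17 the call changed, in 6 genes. The cause of these moves was not tested. Depth limits the 21 members not fitted.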
